A study of Mus musculus with 20 samples.

Results

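The adult globin genes of the mouse were followed in RNA-seq counts of 5 organs. The genes were chosen by name, as Hba-a1 and Hba-a2 (alpha globin chains), Hbb-bs and Hbb-bt (beta globin chains) and Ahsp (the chaperone that holds free alpha chains). Of these 5 genes, the 4 globin genes were found in a count table of 55401 genes, and Ahsp was not analysed here. All 4 passed the filter on low counts in every fit.

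Hemoglobin is a tetramer of alpha and beta chains, each with a heme group. Its genes are switched on in erythroid precursors by factors such as Gata1 and Klf1, and the mRNA persists into reticulocytes, which still circulate, so that globin transcripts in a dissected organ can come from blood as well as from red cell formation within the organ. In mice the spleen filters blood and also makes red cells.

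The organs were the heart, kidney, liver, small intestine, and spleen of 8-week-old female mice, which were either WT or carried a germline deletion of exon 3 and 4 of Nsun6 (KO), an RNA m5C methyltransferase. The deletion was made with CRISPR/Cas9 in C57BL/6J eggs, and homozygous KO mice came from matings of heterozygous mice. Each organ and genotype had 2 libraries, 20 in all, with no treatment. Whether organs of the same number came from 1 animal is not stated, and flushing of blood from the organs is not described in the sources used here. Total counts ranged from 15897446 to 44508197 per library. The study calls the libraries of a group biological replicates, and the labels do not say whether each came from a separate animal, so p-values measure only the spread between these libraries.

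Hba-a1 (ENSMUSG00000069919) and Hba-a2 (ENSMUSG00000069917) lie on the plus strand of chromosome 11 of GRCm38, at chr11:32283511-32284465 and chr11:32296489-32297298. Hbb-bs (ENSMUSG00000052305) and Hbb-bt (ENSMUSG00000073940) lie on the minus strand of chromosome 7, at chr7:103826534-103828096 and chr7:103812524-103813996. Since the 4 genes moved together between organs, the 130 bases before the RefSeq start of 3 of them (GRCm38.p6, on the strand of the gene) are shown here. The first is at chr11:32283542-32283671 on the plus strand, the second at chr7:103827929-103828058 and the third at chr7:103813924-103814053, both on the minus strand. Capitals mark 3 short motifs. One is ATATAA, as in a TATA box. Another is CCAAT, which reads ATTGG on the other strand. The last is the letters CACCC, as in sites of Klf1.
Hba-a1: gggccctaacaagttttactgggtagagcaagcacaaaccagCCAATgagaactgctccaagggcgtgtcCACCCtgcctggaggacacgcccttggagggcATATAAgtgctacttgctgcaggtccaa
Hbb-bs: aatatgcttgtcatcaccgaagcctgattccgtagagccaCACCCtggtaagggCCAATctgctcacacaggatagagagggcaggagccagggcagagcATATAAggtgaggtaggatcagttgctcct
Hbb-bt: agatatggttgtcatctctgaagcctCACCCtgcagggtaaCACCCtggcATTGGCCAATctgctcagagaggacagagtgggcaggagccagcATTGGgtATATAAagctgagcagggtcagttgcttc
The 250 bases before Hba-a2 share an unbroken run of 247 bases with those before Hba-a1, whereas the longest run shared by Hbb-bs and Hbb-bt was 14 bases. Over 250 bases, on both strands, ATATAA was found before all 4 genes and before 9.10% of 32851 genes with a RefSeq promoter. CCAAT, found before all 4, was present in 33.8% of them, and CACCC, also found before all 4, in 52.0%. The letters GATAA, which are part of the site of GATA factors, were found before all 4 genes, outside the bases shown, and before 22.6% of all. These matches describe the letters and are not evidence of binding.

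The transcripts of each pair are so alike that reads can fail to separate them. Of the 100-base windows in the annotated transcripts, 36.7% were unique to Hba-a1, 20.5% to Hba-a2, 50.3% to Hbb-bs, and 45.2% to Hbb-bt, and all other windows were shared within the pair. The split between the members of a pair is therefore uncertain, and most so for Hba-a2.

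Some libraries stood apart from the others of their group. In the spleen WT replicate 2 library the 10 hepatocyte markers summed to 7694 TPM (length-scaled transcript abundance with the same sum in each library), against 34.4 in WT replicate 1 and 272 and 374 in KO replicates 1 and 2. The most abundant of them, Alb, which encodes albumin, stood at 4498 TPM in that library, and none of the 10 was at 0 in any spleen library. In the spleen KO replicate 1 library the 8 kidney tubule markers summed to 185 TPM, of which Kap made up 174, and in the other 3 spleen libraries they summed to 2.02 to 3.59 TPM, with 3 or 4 of the 8 at 0. The small intestine KO replicate 1 library held 503 TPM of 8 cardiomyocyte markers, led by Myl2 at 252 TPM, against 6.39 to 12.1 in the other 3. The small intestine WT replicate 1 library held 379 TPM of 8 B cell markers, against 2.48 to 63.3 in the others. Results from these organs were also computed without each library.

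Nsun6 itself was counted over all its exons, including those outside the deletion, so its counts do not check the genotype labels. In CPM (counts per 1000000 counts after TMM normalization over all libraries) it stood at 6.07 and 4.36 in WT and 4.02 and 6.64 in KO spleens. Outside the spleen it ranged from 4.83 to 9.82 in WT and from 3.32 to 9.68 in KO libraries. The genotypes overlapped in the spleen and in the small intestine.

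Globin transcripts were most abundant in the spleen and least abundant in the small intestine. In the spleen the 4 genes together took 1.74% and 2.41% of all counts in WT and 3.76% and 4.34% in KO. The heart followed with 0.278% and 0.219% in WT and 0.456% and 0.103% in KO. The kidney had 0.109% and 0.151% in WT and 0.154% and 0.136% in KO. These heart and kidney libraries overlapped, since the lowest heart library lay below every kidney library. In the liver the share was 0.0522% and 0.0256% in WT and 0.0414% and 0.0255% in KO. The small intestine had 0.00263% and 0.00531% in WT and 0.00260% and 0.0112% in KO, from 709 to 2952 counts. The spleen, the liver, and the small intestine overlapped with no other organ in this share.

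Hbb-bs was the most abundant transcript of all genes, by TPM, in every spleen library. In the spleen it stood at 26800 and 35643 TPM in WT and 52522 and 79978 TPM in KO. The heart had 5690 and 4881 TPM in WT and 9531 and 2707 TPM in KO. The kidney had 2737 and 3014 TPM in WT and 3027 and 2688 TPM in KO, the narrowest range of the 5 organs in proportion to its level. The liver had 1181 and 591 TPM in WT and 919 and 594 TPM in KO, and the small intestine 52.7 and 89.6 TPM in WT and 62.8 and 158 TPM in KO. The order by mean TPM, from the spleen through the heart, kidney, and liver to the small intestine, was shared by all 4 genes. Hba-a1, the more abundant of the alpha chain genes, ranged from 18928 to 41172 TPM in the spleen, from 807 to 2753 in the heart, from 658 to 1359 in the kidney, from 118 to 336 in the liver, and from 19.9 to 135 in the small intestine. Hbb-bt ranged from 9159 to 26736 TPM in the spleen, from 323 to 1613 in the heart, from 454 to 570 in the kidney, from 87.0 to 186 in the liver, and from 6.92 to 30.3 in the small intestine. Hba-a2 was the lowest of the 4 in every spleen library, at 5624 to 12543 TPM, and ranged from 5.59 to 47.2 TPM in the small intestine, which overlapped with its 16.3 to 52.3 TPM in the liver. Hba-a1 also overlapped between these 2 organs, whereas Hbb-bs and Hbb-bt did not.

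**Figure D1:**
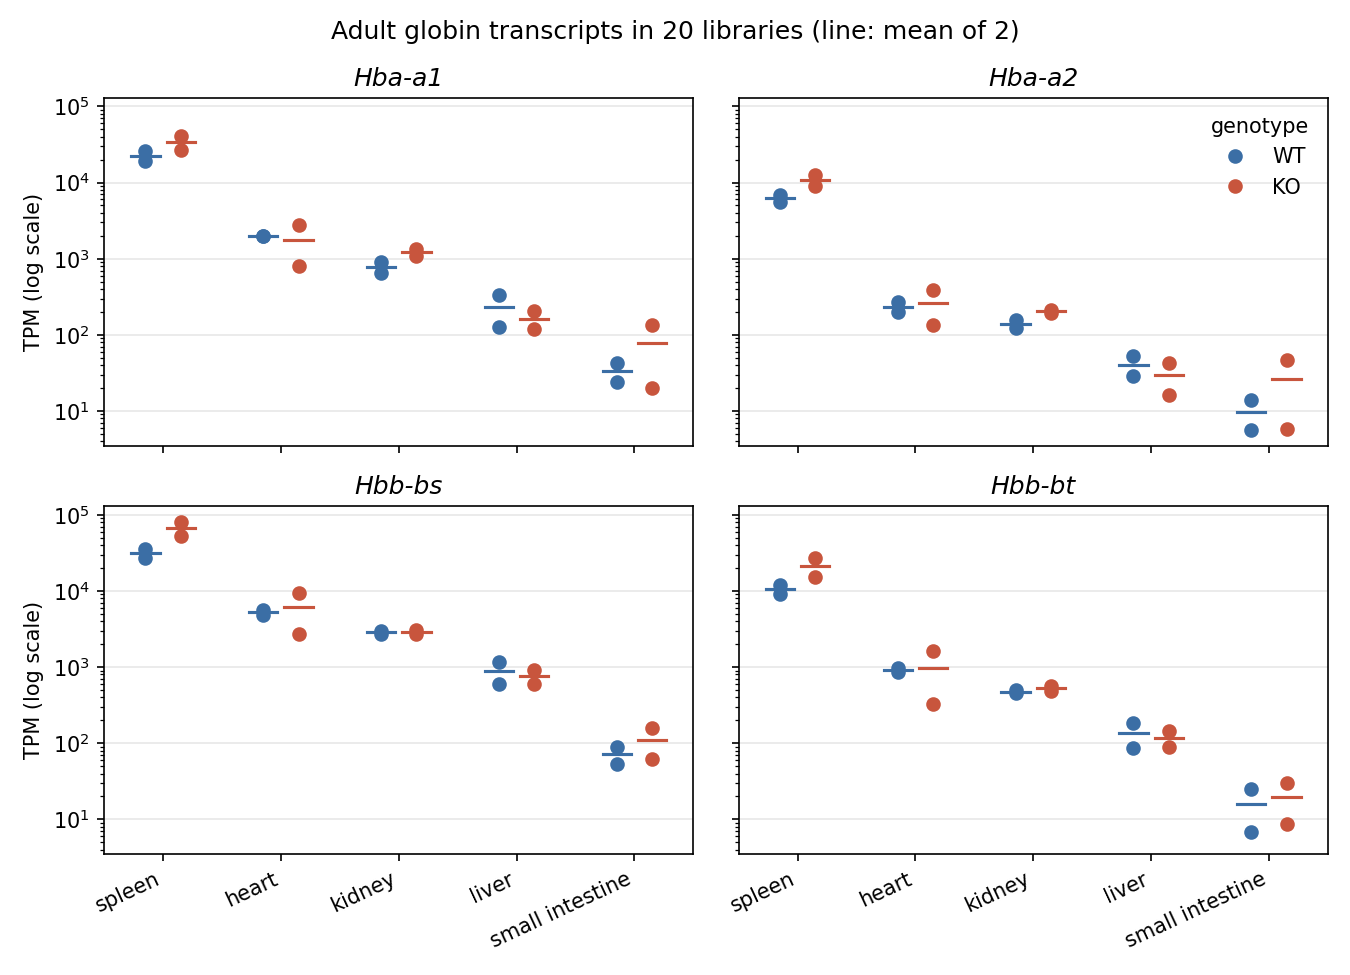
TPM (log axis) of the 4 globin genes in every library, by organ and genotype, with a line at the mean of the 2 libraries. Each gene is highest in the spleen and lowest, by mean, in the small intestine, and the 2 KO hearts lie far apart (Hbb-bs at 9531 and 2707 TPM).

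To compare organs, all 20 libraries were fitted together in edgeR (quasi-likelihood F-test, p-values adjusted by Benjamini-Hochberg over 23159 genes). A gene was called where its adjusted p was below 0.1 and its fold change above 2. Against the mean of the other 4 organs, all 4 genes were called higher in the spleen, where 25% of all genes were called higher. The log2 differences were 5.46 (SE 0.38) for Hba-a1, 6.11 (SE 0.40) for Hba-a2, 4.74 (SE 0.31) for Hbb-bs, and 5.66 (SE 0.37) for Hbb-bt, with adjusted p from 4.77e-10 to 1.43e-09. Scaled by total counts alone, the same differences were 6.20, 6.85, 5.49, and 6.41, while the median of all genes moved by 0.70. This scaling matters between organs, because the TMM factors were 1.46 to 1.53 in the spleen and 0.605 to 0.770 in the liver.

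Of the 40 tests of a globin gene between a pair of organs, 39 passed the threshold. Many genes differ between organs, and 47.7%, 50.4%, 47.0%, and 54.4% of all genes were called, in either direction, between the small intestine and the liver, spleen, kidney, and heart. Between the liver and the spleen, kidney, and heart 53.0%, 35.6%, and 45.5% were called, between the spleen and the kidney and heart 51.2% and 53.3%, and between the kidney and the heart 39.0%. Between neighbors in the order, the heart was below the spleen for all 4 genes, where 27.8% of genes were called higher in the spleen. The kidney was below the heart, with log2 differences of -1.22 for Hba-a1 (adjusted p = 0.0916), -1.25 for Hbb-bs (adjusted p = 0.0331), and -1.22 for Hbb-bt (adjusted p = 0.0791) in edgeR, where 18.6% of genes were called lower in the kidney. Hba-a2 was the exception, with a log2 difference of -0.82 (SE 0.58, adjusted p = 0.275 in edgeR). With total counts alone the differences between kidney and heart were -0.94, -0.54, -0.97, and -0.91 in the order Hba-a1, Hba-a2, Hbb-bs, and Hbb-bt, and no call was left. Hbb-bs kept an adjusted p of 0.0681 in edgeR there, and its call ended because its fold change was under 2. Leaving out 1 of the 20 libraries at a time ended the call in 16 of 20 cases for Hba-a1, in 12 for Hbb-bt, and in 2 for Hbb-bs. The replicate block (-1.23) and a minimum of 10 counts in every library (-1.11) also ended that of Hba-a1, and testing without a filter ended those of Hba-a1 (-1.19) and Hbb-bt (-1.19). The heart and the kidney are thus not separated for these genes beyond their spread under every setting.

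The liver was below the kidney for all 4 genes, with log2 differences of -1.57, -1.48, -1.05, and -1.21 in the same order (edgeR adjusted p from 0.0350 to 0.0878), where 21.6% of genes were called lower in the liver. With total counts alone the differences were -2.27, -2.20, -1.77, and -1.94, and all 4 genes were called (edgeR adjusted p from 0.00181 to 0.00438). The median of all genes was then -0.87, against -0.07 with TMM factors. Leaving out a library ended between 2 and 9 of 20 calls per gene, with log2 differences from -1.94 to -0.73 over the 4 genes. The replicate block ended the calls of Hbb-bs (-1.02) and Hbb-bt (-1.17), and testing without a filter on low counts ended those of Hba-a2 (-1.52), Hbb-bs (-1.08), and Hbb-bt (-1.24). The small intestine was below the liver, with log2 differences of -2.43 (SE 0.59), -1.61 (SE 0.61), -3.77 (SE 0.50), and -3.36 (SE 0.59), with 19.4% of genes called lower, and of these calls that of Hba-a2 was lost without the small intestine WT replicate 1 (adjusted p = 0.103 in edgeR) and with total counts alone (-1.13, adjusted p = 0.1003 in edgeR). The other 3 genes were called under both, and without each of the other libraries.

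Other genes of red cells were compared between the spleen and the heart on the log2 scale of the same fit. Between the spleen and the heart the globins differed by 3.15 (SE 0.60) for Hba-a1, 4.35 (SE 0.66) for Hba-a2, 2.33 (SE 0.48) for Hbb-bs, and 3.30 (SE 0.59) for Hbb-bt. Alas2, the first enzyme of heme synthesis in erythroid cells, had a log2 difference of 2.17 (SE 0.34) and stood at 36.7, 80.6, 60.9, and 40.0 TPM in the 4 hearts. The 16 red cell membrane genes summed to 203 to 384 TPM in the hearts, led by Tmod1, a tropomodulin also found in muscle, at 83.3 to 190 TPM. They differed widely among themselves, and Tmod1 (-5.12, SE 0.44) and Ank1 (-3.08, SE 0.48), an ankyrin of the membrane skeleton, were higher in the heart. Slc4a1, the anion exchanger band 3, had 0.281, 1.54, 0.123, and 0.159 TPM there and a log2 difference of 8.78 (SE 0.82). Klf1, the activator of adult beta globin, had 2, 2, 0, and 8 counts in the 4 hearts and a log2 difference of 8.13 (SE 0.81). Regulators of globin genes also differed among themselves. Nfe2 had a log2 difference of 6.71 (SE 0.69), but Lmo2 one of 2.43 (SE 0.42), within the range of the globins, and Zbtb7a one of 0.85 (SE 0.26). Whether a globin and another gene differ in their spleen to heart ratio was not tested. Rhd, of the Rh blood group complex, was nearer to the globins at 2.99 (SE 0.56), and Tmem14c, a porphyrin carrier, had a value of 0.10 (SE 0.31).

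**Figure D2:**
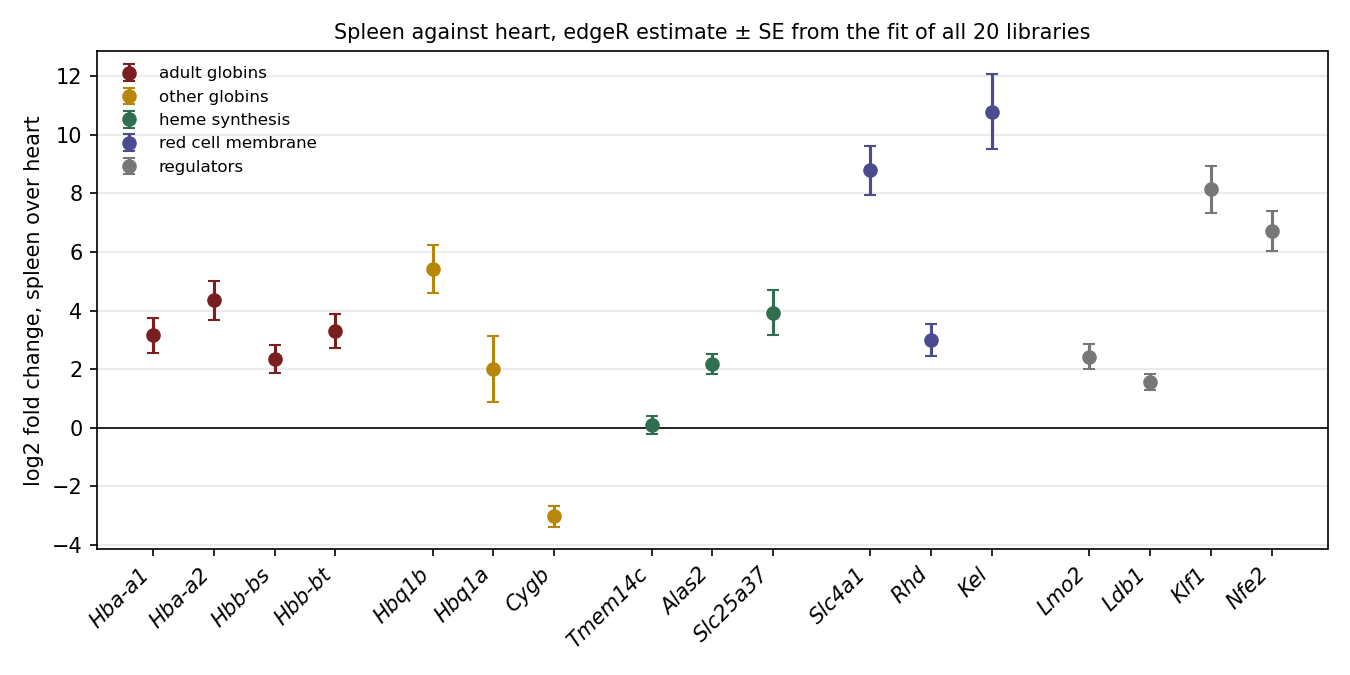
Log2 fold change of the spleen over the heart (edgeR estimate and SE) for the 4 globin genes and genes of high spleen TPM from 4 lists, leaving out a gene with no more than 3 counts in the hearts. The globins lie between 2.33 and 4.35, near Alas2 (2.17), and Slc4a1 and Klf1 lie above 8.

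Other globin genes had patterns of their own. Mb, the oxygen store of muscle, stood at 33536 to 36964 TPM in the hearts and, outside the heart, reached 242 TPM in the small intestine KO replicate 1 library that also held cardiomyocyte markers. Hbb-bh1, an embryonic beta-like gene, ranged from 0.499 to 4.01 TPM in the spleen, and was at 0 in all libraries of the liver, kidney, and heart. Hbq1b, a theta globin gene, had 44.2 and 47.9 TPM in WT and 101 and 115 TPM in KO spleens and at most 2.08 TPM elsewhere.

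Other blood cells ranked the organs in part as the globins did. The 10 platelet markers summed to 724 to 1532 TPM in the spleen, 126 to 174 in the heart, at least 13.1 and at most 20 in the kidney, 15.8 to 19.5 in the liver, and 6.7 to 11.7 in the small intestine. Pf4, a platelet chemokine, was the most abundant of them in the heart. It made up 105 of 126 and 117 of 146 TPM in WT hearts, and 143 of 165 and 93.4 of 174 TPM in KO hearts. The 10 neutrophil markers summed to 965 to 3441 TPM in the spleen, 13.8 to 94.6 in the heart, and at most 31.0 in the other organs. The heart was thus above the kidney for the sum of platelet markers without overlap, a sum that rests largely on Pf4. For neutrophil markers the 2 organs overlapped.

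Within the globins, the ratio of the chains also differed between organs. Hbb-bs over Hbb-bt, as a ratio of TPM, was 2.93 and 2.999 in WT and 3.41 and 2.99 in KO spleens. It ranged from 5.73 to 8.38 in the heart, from 5.31 to 6.64 in the kidney, from 6.34 to 6.78 in the liver, and from 3.58 to 7.61 in the small intestine. No organ overlapped with the spleen, which was lower than each of them. This comparison of ratios was chosen after the values were seen, so the tests run on it are not reported. Hba-a1 over Hba-a2 ranged from 2.93 to 3.85 in the spleen and was higher in the heart (5.97 to 10.1), the kidney (5.16 to 6.97), and the liver (4.43 to 7.22), with no overlap. In the small intestine it was 2.86 to 4.29 and overlapped with the spleen. The part of counting between near-identical genes in these ratios was not tested.

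Alpha over beta chain transcripts was 0.683 and 0.699 in WT spleens, and 0.791 and 0.333 in KO spleens. The KO replicate 2 spleen lay far below the other 3, as its beta chain transcripts (106715 TPM) were the highest of all libraries, while its alpha chain transcripts (35483 TPM) were close to those of WT replicate 2 (33201 TPM). The ratio was 0.196 to 0.284 in the liver, below every spleen. It was 0.281 to 0.384 in the heart, 0.242 to 0.432 in the kidney and 0.360 to 0.966 in the small intestine. The heart and kidney overlapped with the spleen through its KO replicate 2 library, whereas the range of the small intestine held the other 3 spleens. Fewer 100-base windows were unique to the alpha chain genes (36.7% and 20.5%) than to the beta chain genes (50.3% and 45.2%). Reads shared within a pair may thus be lost more often for alpha chains, and their part in this ratio was not tested.

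**Figure D3:**
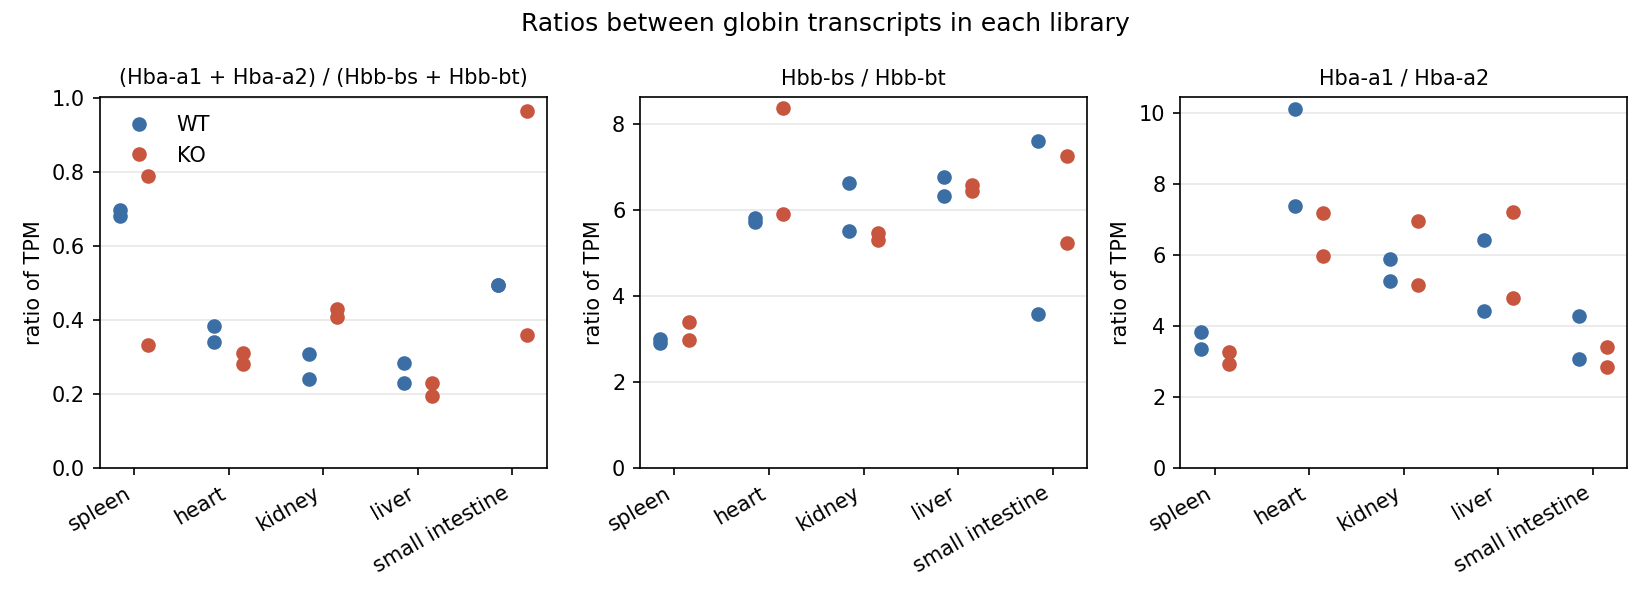
Ratios of TPM between globin genes in each library, by organ and genotype, on axes that start at 0. The spleen is the lowest organ for Hbb-bs over Hbb-bt (2.93 to 3.41), and 1 KO spleen has an alpha to beta ratio of 0.333.

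The spleen was the organ in which KO and WT libraries did not overlap, by CPM, for any globin gene. Hbb-bs had 5159 and 6974 CPM in WT and 11130 and 16694 CPM in KO. Hbb-bt had 1614 and 2128 CPM in WT and 2990 and 5108 CPM in KO. Both KO libraries lay above both WT libraries for these beta chain genes. Hba-a2 had 940 and 1164 CPM in WT and 2309 and 1636 CPM in KO. Hba-a1 had 3852 and 5451 CPM in WT and 9225 and 5838 CPM in KO, and its KO replicate 2 was close to WT replicate 2. For all 4 genes the KO libraries lay above the WT libraries, which was so for 14.7% of the 18834 genes tested. In bulk tissue, more cells of a type and more RNA per cell cannot be told apart.

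The log2 fold changes were 1.24 (SE 0.27) for Hbb-bs, 1.15 (SE 0.31) for Hbb-bt, 0.94 (SE 0.21) for Hba-a2, and 0.72 (SE 0.27) for Hba-a1, that is, 2.36, 2.23, 1.91, and 1.65-fold higher in KO. None passed the threshold in edgeR (Benjamini-Hochberg adjusted p = 0.256, 0.483, 0.256, and 0.848), which called 0.218% of genes higher and 0.00531% lower in KO. At an unadjusted p under 0.05 all 4 passed (0.00288, 0.0102, 0.00290, and 0.0338), beside 4.32% of all genes higher in KO. With the replicate block Hba-a1 did not pass at that level, and none of the 4 did in the fit of all 20 libraries, where the organs share an estimate of the spread and the SE was 0.70 to 0.87. In DESeq2, which called 1.09% of genes higher, Hbb-bs (adjusted p = 0.00104) and Hbb-bt (adjusted p = 0.0107) passed the threshold. Hba-a2 had an adjusted p of 0.00672 in DESeq2 but a fold change under 2, and Hba-a1 had 0.339.

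The same beta chain genes were called in edgeR with the replicate number as a block (adjusted p = 0.0673 and 0.0984), where 0.223% of genes were called higher, and without a filter on low counts (adjusted p = 1.03e-05 and 1.61e-05), where 0.867% were. Without WT replicate 2, the library with hepatocyte transcripts, the log2 fold change was 1.504 for Hbb-bs (adjusted p = 0.0427), 1.13 for Hba-a2 (adjusted p = 0.0900), 1.40 for Hbb-bt (adjusted p = 0.198), and 1.03 for Hba-a1 (adjusted p = 0.197), where 1.32% of genes were called higher. Without KO replicate 1 the values were 1.49 for Hbb-bs, 1.48 for Hbb-bt, 0.67 for Hba-a2, and 0.36 for Hba-a1, and without KO replicate 2 they were 0.89, 0.69, 1.15, and 1.001. Without WT replicate 1 the values were 1.01 for Hbb-bs, 0.94 for Hbb-bt, 0.76 for Hba-a2, and 0.47 for Hba-a1. None of the 4 was called in these 3 fits, where 0.1%, 0.0%, and 0.351% of genes were called higher. The alpha chain genes rest more on KO replicate 1 and the beta chain genes on KO replicate 2, as the per-library values show.

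**Figure D4:**
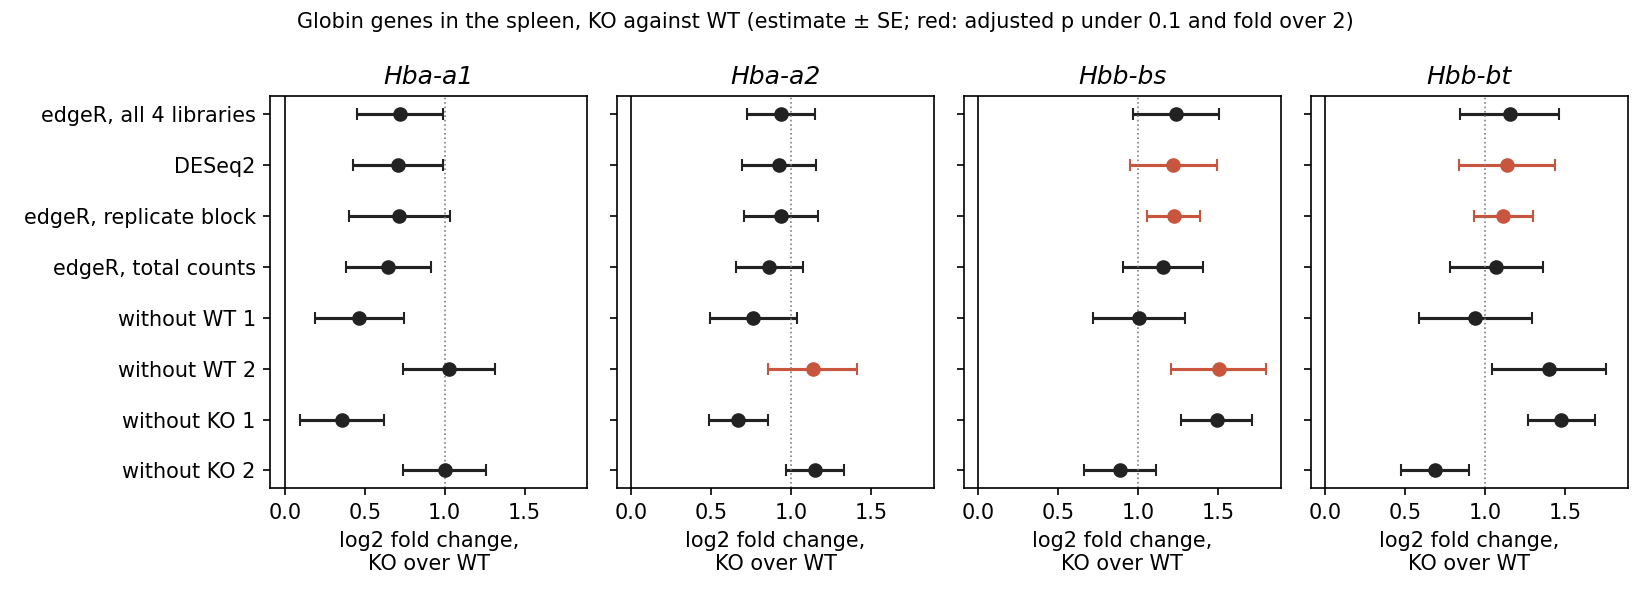
Log2 fold change of KO over WT spleens (estimate and SE) for each globin gene in edgeR and DESeq2, with other scalings, and with 1 library left out, where red marks an adjusted p under 0.1 with a fold change over 2. All estimates are above 0, from 0.36 to 1.504, and the call depends on the tool and the libraries.

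Genes that act with the globins in red cell precursors were examined in the same spleens. Of the 12 heme synthesis genes, all 12 had a higher estimate in KO and 3 were called higher, beside 0.218% of all genes tested, with a median log2 fold change of 1.17 against 0.01 over all genes tested. Alas2 rose from 233 and 249 TPM in WT to 494 and 605 TPM in KO (log2 fold change 1.34, SE 0.18, adjusted p = 0.0839 in edgeR). Slc25a37, which brings iron into mitochondria, had a log2 fold change of 0.96 (adjusted p = 0.132 in edgeR), and Tmem14c one of 0.73 (adjusted p = 0.697 in edgeR).

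Of the 16 red cell membrane genes, 15 were tested, all 15 with a higher estimate, and 5 were called higher, beside 0.218% of all genes, with a median of 1.44 against 0.01 over all genes. Slc4a1 rose from 179 and 190 TPM to 505 and 481 TPM (log2 fold change 1.57, adjusted p = 0.0656 in edgeR). Rhd rose by 1.64 (adjusted p = 0.0948 in edgeR), and Kel, a blood group protease, had a log2 fold change of 1.42 (adjusted p = 0.163). Hbq1b, the single gene called among the 6 tested of 11 other globin genes, rose by 1.38 (adjusted p = 0.0969 in edgeR), and Hbq1a had a log2 fold change of 1.25 (adjusted p = 0.730). The other globin genes had a median of 0.99, and Cygb, a globin of connective tissue cells, had 0.01. Over the genes tested in each fit, the median of the other globin genes was 0.39 without KO replicate 1. It was 1.47 without WT replicate 2.

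Of the 11 genes of erythroid precursors, 10 had a higher estimate and 2 were called higher, beside 0.218% of all genes, with a median of 1.30 against 0.01 over all genes. Car1, a carbonic anhydrase and the most abundant of them, had 217 and 519 TPM in WT and 654 and 430 TPM in KO, so the genotypes overlapped (log2 fold change 0.69, SE 0.56, adjusted p = 0.99994 in edgeR). Mki67, a marker of dividing cells of any type, rose from 125 and 143 TPM to 320 and 316 TPM (log2 fold change 1.40, adjusted p = 0.0711 in edgeR). Tfrc, the transferrin receptor, had 154 and 215 TPM in WT and 412 and 421 TPM in KO (adjusted p = 0.116 in edgeR). Cldn13, a claudin, had a log2 fold change of 1.68 (adjusted p = 0.779 in edgeR). Among 12 regulators of globin genes, 8 had a higher estimate and 1 was called, beside the same share of all genes. The median of the 12 was 0.64, and ranged from 0.27 without KO replicate 1 to 1.10 without WT replicate 2. Klf1 had 24.3 and 58.2 TPM in WT and 119 and 98.5 TPM in KO (log2 fold change 1.54, adjusted p = 0.820 in edgeR). Nfe2 had a log2 fold change of 1.06 (adjusted p = 0.249), Lmo2 one of 0.60, and Ldb1, a cofactor found in many cells, one of -0.11. The 4 genes that balance globin chains (Eif2ak1, the heme-regulated kinase, Ube2o, Ulk1, and Atf4) had higher estimates and none was called, with a median of 0.53.

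The calls on these lists depended on single libraries and on the tool. DESeq2, with 1.09% of all genes called higher, called 7 of 12 heme synthesis genes, 13 of 15 membrane genes, 7 of 11 precursor genes, and 4 of 12 regulators, among them Klf1 (adjusted p = 0.00861 in DESeq2). In edgeR without WT replicate 2, where 1.32% of all genes were called higher, 7 of 12 heme synthesis genes, 12 of 15 membrane genes, and 8 of 11 precursor genes were called, whereas without KO replicate 2 none was, beside 0.0% of all genes, and the direction of the heme synthesis and membrane genes did not change in either fit. The lists were chosen with earlier results of these libraries known, and their counts are not independent of those.

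Markers of other cells of the spleen were examined beside the globins. None of the genes tested for platelets (9), neutrophils (10), B cells (8), T cells (8), red pulp macrophages (6), endothelium (6), or hemoglobin clearance (9) was called in either direction in edgeR. That fit called 0.218% of all genes higher and 0.00531% lower in KO, so few calls could occur in lists of this size. All genes tested had a lower estimate in KO for platelets (9 of 9), neutrophils (10 of 10), and endothelium (6 of 6), and 7 of 8 for B cells, whereas 1 of 8 was lower for T cells, 2 of 6 for macrophages, and 6 of 9 for clearance. At an unadjusted p under 0.05 in edgeR, 3 platelet, 2 neutrophil, and 1 B cell genes were lower and 1 clearance gene was higher, beside 0.828% of all genes lower and 4.32% higher. The median log2 fold changes of the 7 lists were -0.54, -0.57, -0.18, 0.14, 0.06, -0.34, and -0.07, in the order in which they are first named. Over fits without 1 library, the platelet median ranged from -0.68 to -0.27. That of B cells ranged from -0.41 to -0.08, and that of endothelium from -0.56 to -0.23. By summed CPM both KO spleens lay below both WT spleens for endothelium, at 259 and 230 in WT and 220 and 155 in KO. Pf4 had 420 and 595 TPM in WT and 273 and 332 TPM in KO. S100a9, a neutrophil calprotectin subunit, had 871 and 1674 TPM in WT and 483 and 1218 TPM in KO, so the genotypes overlapped. Hmox1, the heme oxygenase of macrophages, had 438 and 727 TPM in WT and 596 and 282 TPM in KO. Blvrb, a biliverdin reductase, had a log2 fold change of 1.04 (adjusted p = 0.442 in edgeR) and was called by DESeq2 (adjusted p = 0.0225), beside 1.09% of all genes called higher. Without WT replicate 1, 2 clearance genes and 1 neutrophil gene were called lower in edgeR, beside 1.51% of all genes, and without WT replicate 2, 1 clearance gene was called higher, beside 1.32%. Without WT replicate 2 the neutrophil median was 0.10 and the T cell median -0.16, and the hemoglobin clearance median was 0.19, so each of these 3 turned without that library. Without KO replicate 2 the T cell median was also negative (-0.028) and the clearance median positive (0.064), and the macrophage median was negative without WT replicate 1 (-0.090) or KO replicate 1 (-0.074). Red pulp macrophage genes such as Spic (99.9 and 121 TPM in WT, 105 and 85.3 TPM in KO) and Vcam1 (160 and 182 TPM in WT, 173 and 153 TPM in KO) differed little between libraries.

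Of markers from outside the spleen, the median log2 fold change over the 10 hepatocyte genes was -3.50, which turned to 3.59 without WT replicate 2, and the 3 kidney tubule genes tested had 2.86, which turned to 0.00 without KO replicate 1. The 5 enterocyte genes tested had a median of -0.45 and the 6 cardiomyocyte genes 0.01. Without KO replicate 1 these medians were -1.42 and -0.61, over the genes tested in that fit. Without KO replicate 2 they were 0.05 and 0.56. None of these genes was called by edgeR in the fit of the 4 libraries, beside 0.218% of all genes called higher and 0.00531% lower. DESeq2, with 1.09% of all genes called higher, called 1 of them, Lrp2 of the kidney tubule, at under 1 TPM in each spleen (log2 fold change 2.86, adjusted p = 0.00687 in DESeq2). The globin levels of the liver and kidney (Hbb-bs at 3027 TPM or less) were below those of every spleen library, and the part of liver or kidney transcripts in the globin values of the spleen was not tested.

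**Figure D5:**
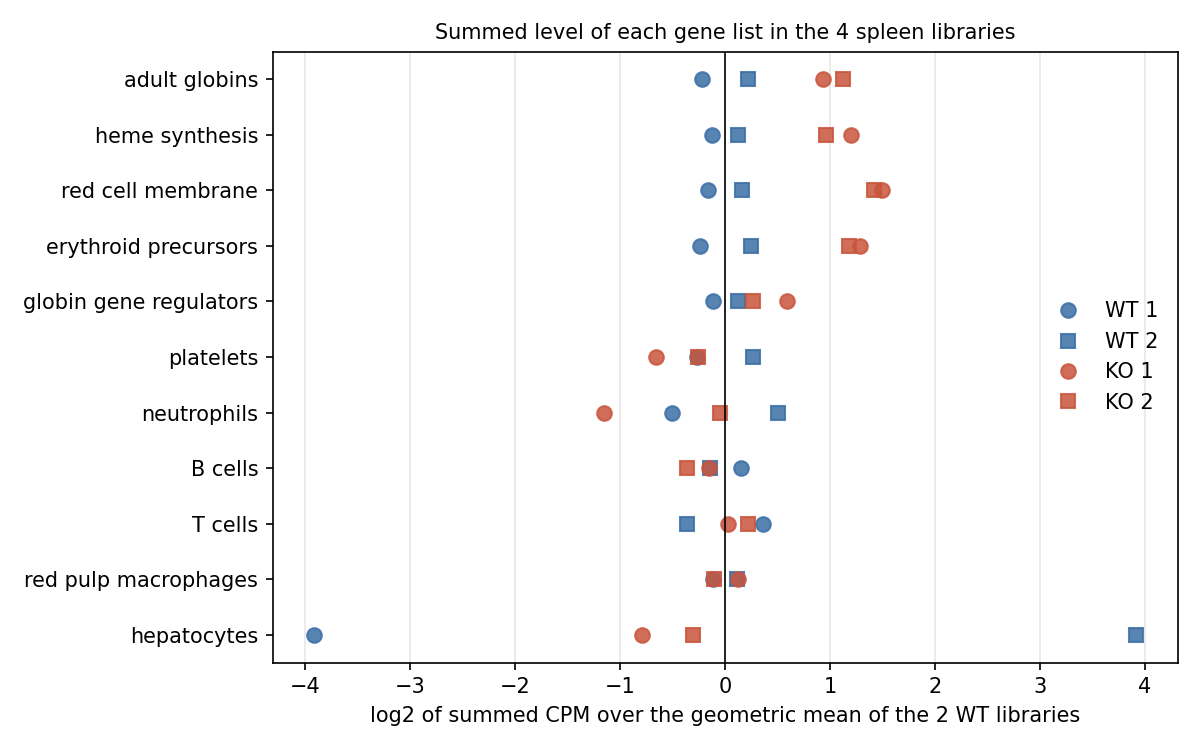
Summed CPM of each gene list in the 4 spleen libraries, as log2 over the geometric mean of the 2 WT libraries. The KO libraries lie to the right of both WT libraries for the globins and the red cell lists, they overlap with WT for platelets, neutrophils, T cells, and red pulp macrophages, and they lie to the left of both for B cells (2968 and 2574 against 3661 and 2984 CPM). The WT replicate 2 library stands out for hepatocyte genes.

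Outside the spleen no globin gene was called between genotypes, and by CPM the KO and WT libraries overlapped for each of them. By TPM, which does not use the TMM factors, both KO kidneys lay above both WT kidneys for Hba-a1 (658 and 916 TPM in WT, 1359 and 1091 TPM in KO) and Hba-a2 (125 and 156 TPM in WT, 195 and 211 TPM in KO), so this overlap depended on the scaling. In the kidney both KO libraries lay above both WT libraries for 9.68% of genes tested by TPM and for 11.7% by CPM. In the small intestine, where 0.0% of genes were called, the log2 fold changes were 1.17 (SE 1.10), 1.39 (SE 1.26), 0.55 (SE 0.72), and 0.17 (SE 1.08) for Hba-a1, Hba-a2, Hbb-bs, and Hbb-bt. Without KO replicate 2, the library with the most globin counts there, they were -1.14, -1.15, -0.56, and -1.32. That fit set KO replicate 1 against both WT libraries. In both genotypes replicate 2 held the larger globin share, with 0.00531% against 0.00263% of counts in WT and 0.0112% against 0.00260% in KO. Genotype and replicate are thus mixed in these values. In the liver, where 0.0509% of genes were called higher, they were -0.27, -0.25, 0.02, and 0.02 with SE from 0.29 to 0.43. In the kidney, where 0.0% of genes were called, they were 0.51, 0.42, -0.10, and 0.10 with SE from 0.34 to 0.50. In the heart, also with 0.0% of genes called, they were -0.00, 0.26, 0.37, and 0.27 with SE from 0.62 to 0.78, and the KO libraries there had the highest and the lowest level of each globin gene. The data labels of both replicate 2 hearts carry the word pre, which is not explained. Their total counts were 36090637 (WT) and 41763236 (KO), against 17959542 and 15897446 in replicate 1. Replicate 2 had the lower globin share in both genotypes, and the part of this difference in the heart values was not tested. The edgeR adjusted p was 0.999 or more for every globin gene in these 4 organs.

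Whether the KO effect in the spleen differed from the mean effect in the other 4 organs was tested in a single fit of all libraries. The differences in log2 fold change were 0.33 (SE 0.94), 0.43 (SE 0.97), 0.97 (SE 0.78), and 0.96 (SE 0.94) for Hba-a1, Hba-a2, Hbb-bs, and Hbb-bt, and none was called (edgeR adjusted p = 0.99998 for each). Of all genes, 0.0% were called in this test by edgeR, with 246 higher and 182 lower at an unadjusted p under 0.05, and 3 were called by DESeq2. A difference between the spleen and the other organs in the response of the globins was thus not detectable in these libraries.

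Over all 20 libraries, the 5 genes other than the globins whose log2(CPM + 1) was most correlated with Hbb-bs were Alas2 (Pearson r = 0.971), Cmtm3 (0.954), Rab3il1 (0.939), Zeb2 (0.939), and Ctla2a (0.931). Hbb-bt had 0.991, Hba-a1 0.978, and Hba-a2 0.936. Over the 16 libraries outside the spleen the 5 were Mcrip2 (0.975), Mpv17 (0.974), Msrb2 (0.974), Prss36 (0.971), and Pyurf (0.970), and no gene was among the first 5 in both. Mcrip2 stood at 115 to 180 CPM in the heart but 3.31 to 6.68 CPM in the spleen, so its likeness to Hbb-bs did not extend to the spleen. Libraries of an organ share tissue and preparation, and these values describe the order of organs.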

How the data were processed

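The authors trimmed reads of a stranded mRNA library with cutadapt, aligned them with HISAT2 2.1.0 (the labels give mm10) and counted them with featureCounts 2.0.1 over exons of Ensembl GRCm38.102, 1 value per gene. The deposited values are raw counts, with the merged exon length of each gene as a further deposited column. The methods describe strand-specific counting of fragments with both ends mapped and without chimeric ones, while the command in the file headers shows no such option. Neither gives an option to count multi-mapped reads, so reads shared by near-identical globin genes may be lost. Counts are reads and not independent molecules.

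From the counts, TPM and TMM-scaled CPM were computed. KO was compared with WT within each organ, and organs in a fit of all 20 libraries, with edgeR 4.0.16 (filterByExpr, TMM, robust quasi-likelihood test, R 4.3.3), the SE being the log2 fold change over the square root of F. Benjamini-Hochberg adjustment ran over all genes tested, and a call needed an adjusted p below 0.1 with a fold change above 2. DESeq2 1.42.0, other scalings and filters, a replicate block, and fits without each library were alternatives. The tests were checked on simulated data, and the outcome is not reported here. The members and lists were chosen with earlier results of these data known. The ratios were compared after their values were seen, so the tests run on them are not reported. All members were named, with at most 4 genes per list, those of highest mean TPM in the spleen among the genes tested, the most abundant gene in each organ, and the 5 genes most correlated with Hbb-bs. Some genes that this rule names are not reported here.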

Additional observations from a re-analysis of the deposited data

Results flagged for a closer look

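Within an organ, the highest or lowest of the 4 libraries was compared with the others by the gap to its neighbor over the whole range (Dixon's ratio), which marks about 1 in 20 groups by chance. The rule was applied in each of the 5 organs to every globin gene, every ratio, and the globin share of counts. Some marks are therefore expected by chance, and the ratios are built from the same genes. Hba-a2 in the kidney WT replicate 1 library, at 22.1 CPM, was far below the other 3 kidneys, but not by TPM, where it stood at 125 against 156, 195, and 211. The alpha to beta ratio of the spleen KO replicate 2 library, at 0.333, was far below the other 3 spleens. The ratio of Hbb-bs to Hbb-bt was far above the others of its organ in the spleen KO replicate 1 library (3.41), the kidney WT replicate 2 library (6.64), and the heart KO replicate 2 library (8.38).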

How the results depend on the processing

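With 2 libraries per group, single libraries decided many values. Over fits without 1 library, KO against WT ranged, for Hba-a1, Hba-a2, Hbb-bs, and Hbb-bt on the log2 scale, from -1.14 to 2.02, -1.15 to 2.45, -0.56 to 1.21, and -1.32 to 1.65 for the small intestine. The ranges were -0.72 to 0.29, -1.09 to 0.29, -0.34 to 0.33, and -0.36 to 0.39 for livers, 0.36 to 1.03, 0.67 to 1.15, 0.89 to 1.504, and 0.69 to 1.48 for spleens, 0.03 to 1.25, -0.0053 to 1.06, -0.47 to 0.42, and -0.17 to 0.46 for kidneys, and -1.58 to 0.74, -1.09 to 0.96, -1.24 to 1.12, and -1.77 to 1.09 for hearts. The spleen effect against the other organs ranged from -0.039 to 0.93, 0.16 to 1.09, 0.66 to 1.38, and 0.53 to 1.47. The genes called numbered 2 to 205 (liver), 0 to 371 (spleen), 1 to 2938 (kidney), 0 to 22 (heart), and 0 to 16 for the spleen effect against the other organs, and 33 to 39 of the 40 tests between organ pairs passed. In the spleen, Hbb-bs and Hbb-bt were also called by DESeq2 (1.22 and 1.14), without a filter (1.23 and 1.15), and with the replicate block (1.22 and 1.11). The sign turned for Hbb-bs and Hbb-bt in the liver with total counts only (-0.16 and -0.16), where the median of all genes moved to -0.14, for Hba-a1 in the heart with DESeq2 (0.028), RLE factors (0.027), and a fit of all libraries (0.016), and for Hba-a2, Hbb-bs, and Hbb-bt in the heart with the replicate block (-0.024, -0.046, and -0.33 for Hbb-bt). The cause was not tested. Genes called by DESeq2 numbered 61 (small intestine), 56 (liver), 219 (spleen), 2 (heart), and 3 for the spleen effect against the other organs. Without a filter they were 122 (liver), 313 (spleen), 13 (heart), and 238 for that effect. With the replicate block they were 20 in the liver and 6 in the heart. A fit of all libraries called 0 in the liver and the spleen, an adjusted p under 0.05 called 0 in the spleen, and at least 10 counts in every library called 105 there. Libraries of the same number deviated together with a correlation of 0.67 (small intestine), 0.082 (liver), -0.042 (spleen), 0.29 (kidney), and 0.49 (heart), which does not establish pairing. Globin counts were low in the small intestine, with 709 in 1 library, and their part in the SE there was not tested.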
